A study of Homo sapiens with 4 samples.

Results

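MALAT1, its antisense RNA TALAM1, NEAT1, LINC02582, LINC01128, GAS5 and SNHG1 are long noncoding RNAs, transcripts that are not translated into a protein of known function. These 7 genes were taken by symbol from the 28278 genes of the deposited table, and all 7 were among the 16900 genes that passed the filter on low counts. They were selected on values measured in these same libraries, so their levels and differences are given below as a description. The calls that the fit over all genes made among them are listed once, and nothing is read from them. The table held 4 libraries of polyA RNA. All cells had been infected with a lentivirus that expressed a short hairpin RNA, and all were then treated with 10 µM sorafenib, a multikinase inhibitor, for 48 hours. Per the labels they are HepG2, an established human liver cancer line. One library came from cells with a Control hairpin, 1 each from cells with ATF7IP hairpin 1 and ATF7IP hairpin 2, and 1 from cells with a SETDB1 hairpin. SETDB1 is a histone H3 lysine 9 methyltransferase and ATF7IP is its binding partner. There was no library without sorafenib and no library without a hairpin, and nothing states that any library was pooled from several cultures. Control and SETDB1 knockdown have no replicate, and the 2 ATF7IP libraries differ in their hairpin, so the spread between them mixes hairpin, culture and library.

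Library totals ranged from 70236882 counts in Control to 73791097 in ATF7IP hairpin 2, and levels are given as CPM, the count divided by the scaled library size and brought to a common depth. Where 4 levels stand together, Control comes first, the first and second ATF7IP hairpin follow, and the SETDB1 hairpin is last. Low values in the table piled up at 4 and 8, from which 4 counts per sequenced fragment were assumed. Fragment numbers, 95% intervals and the floor of 12 counts (3 fragments, 0.156 to 0.173 CPM) rest on that assumption and cover counting error only. The targeted genes matched their labels. ATF7IP was at 59.1, 18.3, 18.8 and 97.8 CPM, and SETDB1 was at 47.7, 52.1, 46.7 and 11.99 CPM. The defining markers of HepG2 cells were not there. Of 9 hepatoma markers, 8 were at or under the floor in every library, ALB, AFP, APOB and TTR were at 0 counts in all 4, and the 9 together summed to between 0.283 and 0.520 CPM. The liver long noncoding RNAs FAM99A and LINC00261, named after their values were seen, were at 0 in all 4 libraries as well. These values go against the cell line on the label, and the libraries are called by their hairpins here.

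MALAT1 and NEAT1 are abundant RNAs of the cell nucleus that are transcribed from neighbouring genes. MALAT1 gathers in nuclear speckles, bodies rich in splicing factors. The long form of NEAT1 is the scaffold of paraspeckles, which hold RNA-binding proteins, whereas its short form ends at a conventional poly(A) signal. Mature MALAT1 and long NEAT1 carry no added poly(A) tail: RNase P cuts them upstream of a tRNA-like structure, and U-rich and A-rich stretches fold into a triple helix that shields the new end. GAS5 and SNHG1 are host genes, whose introns hold small nucleolar RNAs (snoRNAs), the guides for chemical modification of ribosomal RNA. The spliced host RNAs are known targets of nonsense-mediated decay.

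How each RNA ends bears on its capture in a polyA library, so the ends are shown first, from GENCODE version 29 (GRCh38, the same assembly as hg38) and 5′ to 3′. The ends of MALAT1 (chr11:65506007-65506116, plus strand, bases 8246 to 8355 of the 8708 in transcript MALAT1-202) and of long NEAT1 (chr11:65445431-65445540, plus strand, the last 110 bases of the 22743 in NEAT1-202) have runs of 4 or more A or T in capitals.
MALAT1: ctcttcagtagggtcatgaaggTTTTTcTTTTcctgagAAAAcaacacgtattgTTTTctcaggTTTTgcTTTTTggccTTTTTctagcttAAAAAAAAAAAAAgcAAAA
NEAT1 long: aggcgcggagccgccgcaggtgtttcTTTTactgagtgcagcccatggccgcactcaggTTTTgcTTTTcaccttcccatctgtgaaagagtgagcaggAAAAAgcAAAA
Both hold the 16 bases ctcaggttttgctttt, and both stop in aaaaagcaaaa. The 16-base stretch was found, on the transcript strand, in 2 of 206694 annotated transcripts, which were MALAT1-202 and NEAT1-202. MALAT1-202 goes on for 353 bases beyond the printed end, into the part that is cut off.

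Within long NEAT1 there was a run of 22 A from base 18046 (chr11:65440823-65440884, plus strand, the run in capitals), and NEAT1-202 held 6 runs of 9 or more A against 1 in MALAT1-202, which was the run of 13 A printed above. Of 14379 GENCODE transcripts of the lincRNA type, 8.80% held such a run. The poly(A) signal AATAAA at base 3706 of NEAT1-202 (chr11:65426463-65426532, plus strand, signal in capitals) lies where the short form ends.
NEAT1 internal A run: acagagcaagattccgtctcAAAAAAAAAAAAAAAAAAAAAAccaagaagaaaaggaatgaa
NEAT1 short form: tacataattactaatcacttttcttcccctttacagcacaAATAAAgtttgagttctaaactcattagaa
For LINC02582, LINC01128 and SNHG1, 1 transcript each that ends in a conventional signal is shown by its last 50 bases, with AATAAA or ATTAAA in capitals. The transcripts are LINC02582-201 (chr18:73349829-73349878, plus strand), LINC01128-205 (chr1:859397-859446, plus strand) and SNHG1-206 (chr11:62851988-62852037, minus strand). Other transcripts of these genes, and the ends of GAS5 and TALAM1, are not shown.
LINC02582: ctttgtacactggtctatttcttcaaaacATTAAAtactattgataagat
LINC01128: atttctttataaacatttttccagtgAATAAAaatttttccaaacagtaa
SNHG1: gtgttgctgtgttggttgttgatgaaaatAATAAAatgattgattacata
The signals began 21 to 24 bases before the annotated end, and 42.2% of the 14379 lincRNA transcripts had AATAAA or ATTAAA in their last 50 bases on the transcript strand. A match is a description of the sequence, and which end was captured in these libraries was not tested.

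The 7 genes fell into abundant and sparse ones. By mean level GAS5 ranked 2nd, NEAT1 4th, SNHG1 6th and MALAT1 9th of the 4634 annotated long noncoding RNA genes in the table, after loci that read through neighbouring genes were set aside. LINC01128 ranked 54th, LINC02582 121st and TALAM1 137th. LINC02582 owed its rank mainly to SETDB1 knockdown (27.9 CPM) and TALAM1 to ATF7IP hairpin 1 (35.0 CPM). In the other libraries LINC02582 was at 3.65 to 4.88 CPM and TALAM1 at 0 to 1.55 CPM. Together the 7 took 24.3%, 22.2%, 20.9% and 20.8% of all long noncoding counts. Per kilobase of the longest lincRNA transcript, MALAT1 was at 41.0, 21.8, 28.8 and 35.1 CPM and NEAT1 at 39.005, 33.1, 24.9 and 28.7 CPM, so NEAT1 was above MALAT1 in ATF7IP hairpin 1 and below it in the other libraries. With the length of the short transcript NEAT1-201, 3441 bases, NEAT1 came to 258, 218, 165 and 190 CPM per kilobase and was above MALAT1 in all 4 libraries. The order of the pair therefore depends on which NEAT1 form the fragments came from, which gene counts do not show. On the same scale GAS5 was at 1127, 1248, 853 and 778 CPM per kilobase and SNHG1 at 340, 312, 291 and 292.

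MALAT1 (chr11:65497738-65506516) was lower than Control in all 3 knockdown libraries. It had 24805, 13399, 19267 and 21741 counts, or 357, 190, 251 and 306 CPM. ATF7IP hairpin 1 was lowest, at 53.2% of Control (95% counting interval of the ratio 0.510 to 0.555), hairpin 2 was at 70.3% and SETDB1 knockdown at 85.7%. The log2 difference from Control was -0.71 ± 0.28 (SD, n = 2 hairpins) in ATF7IP knockdown and -0.22 in the 1 SETDB1 library. The gap of 0.40 between the 2 hairpins was larger than the distance of SETDB1 knockdown from Control.

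TALAM1 (chr11:65499312-65507432) is transcribed from the opposite strand and overlaps MALAT1 over 7205 bases, 88.7% of TALAM1 and 82.1% of MALAT1. Use of strand in the counting was not stated, so reads of the pair cannot be told apart with certainty. TALAM1 had 10, 2472, 119 and 0 counts, or 0.144, 35.0, 1.55 and 0 CPM. The counts sat almost entirely in ATF7IP hairpin 1, which was 22.4-fold above hairpin 2 (95% counting interval 15.5 to 33.5). Control, rounded to 2 fragments, gave ratios of 304 (83.9 to 2520) for hairpin 1 and 13.6 (3.45 to 117) for hairpin 2. Control and SETDB1 knockdown were both at or under the floor, so no fold is given between them. TALAM1 was the 1 member of 7 at least 2-fold above Control in both hairpins, against 3.5% of all tested genes. These values chose the member, so nothing is read from that share.

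Added together, MALAT1 and TALAM1 had 24815, 15871, 19386 and 21741 counts, or 357, 225, 253 and 306 CPM. TALAM1 made up 0.0403% of the sum in Control, 15.6% in hairpin 1 and 0.614% in hairpin 2. The sum kept the order of MALAT1 alone, with Control highest, then SETDB1 knockdown, hairpin 2 and hairpin 1. Summing narrowed the difference between the hairpins from 0.40 to 0.17 on the log2 scale, and the sum was at 63.0% and 70.8% of Control. Its log2 difference was -0.58 ± 0.12 (SD, n = 2 hairpins).

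NEAT1 (chr11:65422798-65445540) lies 52.2 kb from MALAT1 on the same chromosome and was also lower than Control in all 3 knockdown libraries. Its counts were 61681, 53042, 43501 and 46454, or 887, 752, 567 and 653 CPM. Hairpin 1 stood at 84.7% of Control, hairpin 2 at 63.9% and SETDB1 knockdown at 73.6%. The log2 difference was -0.44 ± 0.29 (SD, n = 2 hairpins) in ATF7IP knockdown and -0.44 in SETDB1 knockdown. NEAT1 and MALAT1 ordered the hairpins in opposite ways: NEAT1 was lower in hairpin 2 than in hairpin 1 by 0.41 on the log2 scale, and MALAT1 was higher there. NEAT1 counts were 2.49 times the MALAT1 and TALAM1 sum in Control, 3.34 times in hairpin 1, 2.24 times in hairpin 2 and 2.14 times with the SETDB1 hairpin.

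MALAT1, NEAT1 and SNHG1 were 3 of 7 members below Control in all 3 knockdown libraries, against 23.4% of all tested genes. The 3 libraries share 1 Control library, so a high value in Control alone would place a gene in this count. FRMD8, 9.27 kb before NEAT1, was at 27.3, 30.4, 30.9 and 32.2 CPM, above Control in each knockdown library.

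The protein partners of these RNAs were described from lists. None of 29 paraspeckle protein genes passed the edgeR quasi-likelihood test at an adjusted p under 0.05 in either comparison with Control. Of all tested genes 0.0769% did for ATF7IP and 0.071% for SETDB1 knockdown. With shares this low, a list of this size would seldom hold a call, so its absence says little. At an unadjusted p under 0.05, 3 passed for ATF7IP and 2 for SETDB1 knockdown, where 8.94% and 4.71% of all 16900 tested genes did. DESeq2 called 1 and 0, against 1.16% and 0.272% of the genes to which it gave an adjusted p. These shares are the background for the edgeR and DESeq2 counts of the other lists against Control. The median log2 difference of the paraspeckle genes was 0.14, 0.13 and 0.13 in hairpin 1, hairpin 2 and SETDB1 knockdown. Over all tested genes it was 0.00 in each. Of them, 12 were above Control in all 3 knockdown libraries and 3 below, where 23.4% of all tested genes were below. The share of all tested genes above Control was not computed. The 3 libraries share 1 Control library, so nothing is read from the 12. NONO, a core paraspeckle protein, was at 599, 663, 657 and 574 CPM. HNRNPK, which is needed for paraspeckle assembly, was at 886, 906, 854 and 982 CPM. None of 26 nuclear speckle and SR protein genes was called by edgeR or DESeq2 in those comparisons (3 and 0 at an unadjusted edgeR p under 0.05), with medians of 0.06, 0.12 and -0.04. SRRM2, a scaffold of nuclear speckles, was at 454, 312, 285 and 325 CPM, below Control in each knockdown library. SON, the other speckle scaffold, was at 272, 231, 302 and 321 CPM. The splicing factor SRSF3 was at 183, 339, 341 and 244 CPM, highest in the ATF7IP hairpins.

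Of 13 genes for the formation and stability of the MALAT1 end, none was called by either tool (1 and 1 at an unadjusted edgeR p under 0.05) and the medians were 0.31, 0.12 and 0.05. RPP14, a subunit of RNase P, was at 83.4, 79.4, 90.7 and 80.03 CPM. ELAC2, the nuclease that trims tRNA 3′ ends, was at 140, 185, 159 and 168 CPM. METTL16, an RNA methyltransferase that binds the MALAT1 triple helix, was at 117, 71.2, 95.2 and 106 CPM. Its libraries stood in the same order as those of MALAT1, with Control highest and hairpin 1 lowest. NEAT1 was lowest in hairpin 2. A link between METTL16 and either RNA was not tested. Of 17 nuclear RNA decay genes and 19 nonsense-mediated decay genes, none was called by either tool against Control. At an unadjusted edgeR p under 0.05 there was 1 decay gene for ATF7IP knockdown and none otherwise, and the medians of the lists were 0.22, 0.04 and 0.13 and 0.02, -0.01 and 0.09. XRN2, the nuclear 5′ to 3′ exonuclease, was at 192, 182, 213 and 221 CPM. UPF1, the helicase of nonsense-mediated decay, was at 163, 183, 190 and 151 CPM.

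LINC02582 (chr18:73324941-73349889) had the largest difference from Control in SETDB1 knockdown of the 6 members with a value there. It had 339, 296, 280 and 1988 counts, or 4.88, 4.19, 3.65 and 27.9 CPM. The SETDB1 library alone was high, and the other 3 lay between 3.65 and 4.88 CPM. SETDB1 knockdown was 5.71-fold above Control (95% counting interval 4.53 to 7.28), 6.66-fold above hairpin 1 (5.21 to 8.62) and 7.66-fold above hairpin 2 (5.96 to 9.99). In ATF7IP knockdown the log2 difference from Control was -0.32 ± 0.14 (SD, n = 2 hairpins), and the counting intervals of both ratios to Control, 0.620 to 1.19 and 0.536 to 1.04, included 1. LINC02582 was the 1 member of 7 at least 2-fold above Control in SETDB1 knockdown, against 5.47% of tested genes. Its nearest neighbours at 1 CPM or more were far off: TIMM21, 799 kb after it, was at 38.6, 42.9, 47.2 and 40.5 CPM, and SOCS6, 2.99 Mb before it, was at 45.03, 35.3, 44.6 and 51.2 CPM.

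In the edgeR quasi-likelihood test over all 16900 genes (adjusted p under 0.05), 0 of 7 members were called between ATF7IP knockdown and Control, where 0.0769% of genes were, and 0 of 7 between SETDB1 knockdown and Control, where 0.071% were. Between SETDB1 and ATF7IP knockdown 1 of 7, LINC02582, was among the 0.166% called. At an unadjusted edgeR p under 0.05, 1 member of 7 passed in each comparison, MALAT1 in the first and LINC02582 in the others, where 8.94%, 4.71% and 9.88% of all tested genes passed. DESeq2 called 0, 1 and 2 members, which were LINC02582 against Control and LINC02582 and TALAM1 between the knockdowns, out of 162, 46 and 173 genes in all (1.16%, 0.272% and 1.21% of genes with an adjusted p). The members were chosen with these contrasts known, so these counts are given without a reading.

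LINC01128 (chr1:827591-859446) varied little. It had 1688, 1752, 2279 and 2006 counts, or 24.3, 24.8, 29.7 and 28.2 CPM. All 3 knockdown libraries were at or above Control, by 0.03 and 0.29 on the log2 scale in the hairpins and 0.22 in SETDB1 knockdown. The gap between the 2 hairpins, 0.26, was larger than the SETDB1 difference. SAMD11, 64.5 kb after it, was at 6.85, 18.6, 8.32 and 3.98 CPM and so varied more than LINC01128 did.

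GAS5 (chr1:173863901-173869045) had 78880, 88677, 65976 and 55755 counts, or 1134, 1257, 859 and 784 CPM. Hairpin 1 was the highest library and SETDB1 knockdown the lowest. The hairpins lay on either side of Control, at 111% and 75.8%, and the log2 difference was -0.13 ± 0.39 (SD, n = 2 hairpins). SETDB1 knockdown was at 69.1% of Control (95% counting interval 0.676 to 0.706). The GAS5-219 transcript opens with a C and a run of pyrimidines, the mark of the 5′ TOP messages that also encode ribosomal proteins, shown here as its first 30 bases with the leading run in capitals (chr1:173867960-173867989, minus strand).
GAS5 start: CTTTTCgaggtaggagtcgactcctgtgag
Of 29 annotated GAS5 transcripts, 6 begin with C and at least 4 more pyrimidines, as do 2.63% of lincRNA transcripts. The 86 ribosomal protein genes summed to 46574, 58529, 39474 and 45242 CPM, highest in hairpin 1 and lowest in hairpin 2. A link between the 2 patterns was not tested.

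SNHG1 (chr11:62851978-62855885) had 35158, 32752, 33206 and 30893 counts, or 506, 464, 433 and 434 CPM. The knockdown libraries were at 91.8%, 85.5% and 85.9% of Control, with Control the highest library. The log2 difference was -0.17 ± 0.07 (SD, n = 2 hairpins) in ATF7IP knockdown and -0.22 in SETDB1 knockdown. SLC3A2, whose gene lies 0.224 kb away and encodes the heavy chain of an amino acid transporter, did not follow it, at 850, 1101, 1127 and 887 CPM.

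The snoRNAs in the introns of both hosts were counted at low levels. The 11 snoRNAs of GAS5 summed to 23.6, 27.2, 18.98 and 18.7 CPM, the same order of libraries as GAS5 itself. Of these, 5 were below Control in hairpin 1, 10 in hairpin 2 and 10 in SETDB1 knockdown. The higher sum in hairpin 1 came mainly from SNORD81 (190 counts in Control, 341 in hairpin 1) and SNORD47 (397 and 527). In hairpin 1 the median log2 difference of the 11 was 0.007. The 8 snoRNAs of SNHG1 summed to 17.96, 16.9, 13.9 and 13.3 CPM, and of the 7 that were tested 4, 7 and 7 were below Control. These RNAs carry no poly(A) tail, and their reads may be shared with unspliced host RNA, so the host and its snoRNAs are not separate measurements. SNORD25 of SNHG1, MASCRNA (the tRNA-like RNA cut from MALAT1) and MIR612 within NEAT1 had exactly 1 count in all 4 libraries, as did 117 genes in all, 96 of them miRNAs. Those entries hold no information on level.

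The noncoding snoRNA host genes as a group divided by library. Of 28 tested, 20 were above Control in hairpin 1, 11 in hairpin 2 and 6 in SETDB1 knockdown, with median log2 differences of 0.18, -0.12 and -0.20, and none was called by edgeR or DESeq2 in any of the 3 comparisons (0, 0 and 1 at an unadjusted edgeR p under 0.05). Their summed level was 5170, 5744, 4149 and 4243 CPM. SNHG29, the most abundant, was at 1388, 1393, 964 and 1057 CPM. ZFAS1, named after its values were seen, was at 483, 545, 324 and 378 CPM. SNHG32 was at 776, 1021, 732 and 766 CPM, near Control except in hairpin 1.

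**Figure D1:**
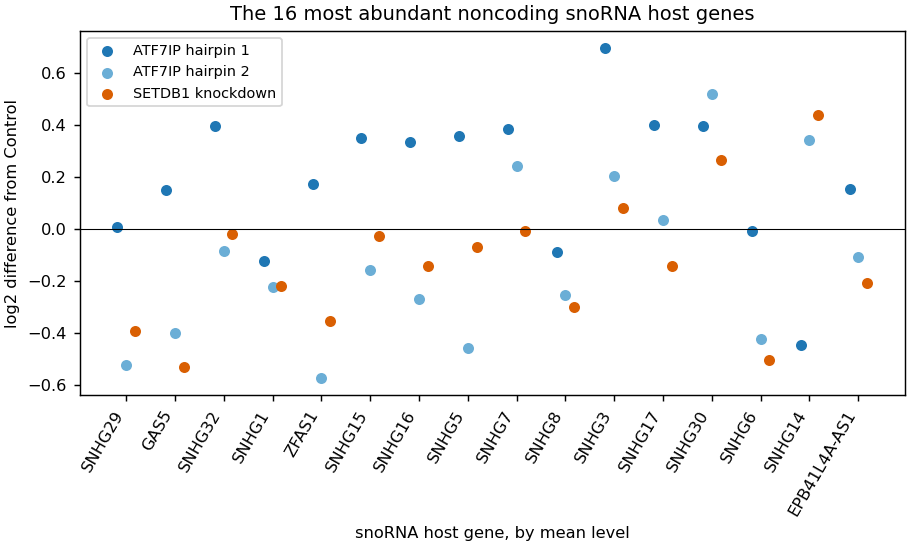
Log2 difference from Control of the 16 most abundant noncoding snoRNA host genes, ordered by mean level; each point is 1 library against the 1 Control library. GAS5 is above 0 in ATF7IP hairpin 1 and below 0 in the other libraries, and SNHG1 is below 0 in all 3.

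The other annotated long noncoding RNA genes were taken as the background for the 7. Without read-through loci and without the members, 1448 genes were tested, and together they took 0.899%, 0.948%, 0.843% and 0.833% of all counts. Their median log2 difference was 0.05 and 0.00 in the hairpins and -0.09 in SETDB1 knockdown. Among those with a mean of 5 CPM or more, 0 of 208 were at least 2-fold from Control in the same direction in both hairpins, against 1.35% of all genes at that level, and 3.37% were in SETDB1 knockdown, against 1.53%. Below 5 CPM the shares were 14.1% and 28.1%, against 16.1% and 27.9% of all genes.

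Beside LINC02582, the largest positive differences in SETDB1 knockdown among long noncoding RNAs at 5 CPM or more, apart from read-through loci, were LINC00707 (28.0, 32.6, 27.1 and 80.7 CPM), UCA1 (38.6, 79.2, 32.8 and 94.3 CPM) and LINC00958 (6.49, 8.80, 8.60 and 14.4 CPM). LINC02582, with a log2 difference of 2.51, reached a mean of 5 CPM only through SETDB1 knockdown. Larger positive differences lay under that mean, such as LINC00520 (4.05, mean 2.05 CPM) and LINC02154 (3.20, mean 4.85 CPM). LINC00707 and LINC00958 were highest in SETDB1 knockdown with the other 3 libraries close together, whereas UCA1 was also high in hairpin 1. KRT7-AS, antisense to a keratin gene and among the lowest differences, was at 26.5, 19.5, 9.59 and 8.36 CPM. In ATF7IP knockdown, NRAV was at 10.3, 20.4, 23.9 and 9.73 CPM, with both hairpins above the other libraries. MIR100HG, a host of miRNAs, was at 19.6, 10.0, 9.18 and 12.4 CPM, and LINC02035 was at 14.6, 7.33, 6.34 and 10.2 CPM, both below Control in all 3 knockdown libraries. Long noncoding genes called by edgeR between SETDB1 and ATF7IP knockdown, apart from read-through loci and LINC02582, were PINCR (1.75, 1.11, 1.48 and 9.99 CPM) and LOC102723360 (17.2, 31.2, 27.2 and 6.03 CPM). With LINC02582 they were 3 of 1455, where 0.166% of all tested genes were called. None of the 1455 was called against Control, where 0.0769% (ATF7IP) and 0.071% (SETDB1 knockdown) of all tested genes were. At an unadjusted edgeR p under 0.05 there were 110 for ATF7IP and 89 for SETDB1 knockdown, where 8.94% and 4.71% of all tested genes passed. DESeq2 called 2 and 6, where it called 1.16% and 0.272% of all genes with an adjusted p. The counts among the 1455 include the members.

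Of 29 tested genes in a list of other well-known long noncoding RNAs, none was called against Control by edgeR or DESeq2 (5 and 1 at an unadjusted edgeR p under 0.05), with medians of 0.00, -0.23 and 0.06. H19, an imprinted RNA, was at 624, 709, 361 and 814 CPM. NORAD, which binds PUMILIO proteins, was at 350, 230, 355 and 252 CPM. OIP5-AS1 was at 234, 137, 159 and 181 CPM, the same order of libraries as MALAT1. TUG1 was at 191, 176, 222 and 183 CPM.

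The genes whose profile over the 4 libraries was most like each of 3 members were taken by the root mean square distance between centred log2 levels, among 11054 tested genes at a mean of 5 CPM or more. Nearest to the MALAT1 and TALAM1 sum were CASD1 (distance 0.01), ROBO1 (0.02) and RASAL2 (0.02). Nearest to NEAT1 were MAP3K8 (0.02), CNN2 (0.03) and C19orf54 (0.03). Among these candidates LINC02582 had no close match: RNA45SN5, a ribosomal RNA precursor, was at 0.51, SENP3-EIF4A1 at 0.55 and EPGN at 0.55. LINC02582 passed the cut at 5 CPM only through SETDB1 knockdown (27.9 CPM), and genes under the cut were not searched. PINCR, under it at a mean of 3.58 CPM, had log2 differences from Control of -0.65, -0.24 and 2.49. Those of LINC02582 were -0.22, -0.42 and 2.51. With 4 libraries, small distances are found for many genes, and nothing about function is read from them.

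Of 27 small structural RNAs without a poly(A) tail, 20 were at or under the floor in all 4 libraries. Of the 8 tested, 6, 4 and 6 were above Control in hairpin 1, hairpin 2 and SETDB1 knockdown, and 2, 4 and 2 below it. RN7SL2 encodes the RNA part of the particle that docks secretory ribosomes. Its level was 0.892, 6.04, 6.41 and 28.3 CPM, and ribosomal RNA genes took 0.325%, 0.489%, 0.408% and 0.721% of counts. The median log2 differences of the 8 were 0.73, 0.30 and 1.86. At an adjusted p under 0.05, edgeR called 1 of the 8 for ATF7IP knockdown, RN7SL2, and 2 for SETDB1 knockdown, RN7SL2 among them. Over all tested genes 0.0769% and 0.071% were called. Control and SETDB1 knockdown have no replicate, so nothing is read from these calls. RN7SL1, of the same particle, was at 1.02, 5.61, 5.41 and 17.1 CPM. RN7SK, a regulator of transcription elongation, was at 1.04, 0.978, 0.977 and 3.87 CPM, and RNU2-1, a spliceosomal RNA, was at 0.604, 0.709, 0.495 and 1.03 CPM, so neither followed RN7SL2 in both hairpins. With library totals in place of TMM sizes, leaving ribosomal RNA and RN7SL genes out of the totals moved the members' log2 differences by at most 0.0058. Fibroblast markers were lower in each knockdown library and summed to 405, 238, 201 and 207 CPM. All 6 were below Control in all 3, but 1 of them was at or under the floor in all 4 libraries. COL3A1 made up most of that sum, at 335, 191, 155 and 155 CPM. Immune markers summed to 22.8, 25.1, 27.8 and 43.0 CPM, nearly all from CD68, with CD3D and CD3E at 0 in all 4 libraries, and endothelial markers summed to at most 0.690 CPM. The part of these differences between libraries in the members' values was not tested. In bulk libraries, fewer cells that hold an RNA and less of it per cell cannot be told apart.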

How the data were processed

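Per gene symbol, the authors deposited estimated counts (expected counts) for 4 libraries, as whole numbers and with no scaling between libraries. HISAT2 2.2.1, StringTie 2.2.1, the DESeq2 1.34.0 package and the build hg38 appear in the submitters' processing notes, with no role given. Annotation, counting and use of strand: not given in the sources used here. Low values piled up at 4 and 8 (489 Control genes at 4, 288 at 3 and 265 at 5).

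CPM used TMM library sizes (edgeR 4.0.16, R 4.3.3; factors 0.980 to 1.04), and log2 differences used a prior count of 2. All 4 libraries, in 3 groups, were fitted with the edgeR quasi-likelihood test after filterByExpr with a minimum count of 10, with Benjamini-Hochberg adjustment over 16900 genes. Only the 2 ATF7IP libraries gave a spread (1 residual degree of freedom), which was taken to hold for the other groups too. P-values measure only the spread between these libraries. Exact intervals are conditional binomial (Clopper-Pearson). Gene types and positions came from RefSeq (GRCh38.p14) and transcript sequences from GENCODE version 29, whose assembly is the same.

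The members, gene lists and comparisons were chosen with earlier results of these data known. Named genes were the members, up to 4 most abundant genes per list and called ones, the 5 highest and 5 lowest long noncoding genes at 5 CPM or more per comparison, the nearest neighbours and the 3 most alike profiles; text values are given for part of these. Leaving out read-through loci was chosen after the values were seen. Alternatives were other scalings, DESeq2 1.42.0, no filter, another prior count and leaving out a hairpin. A few items are not reported here.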

Additional observations from a re-analysis of the deposited data

How the results depend on the processing

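Of 67 values of the members and of the long noncoding class recomputed with all libraries, 66 stayed within the spread between the hairpins, within the counting interval or within 1.5 times the count. The exception was TALAM1 in ATF7IP knockdown, 5.44 alone and -0.58 when summed with MALAT1. Other scalings move all genes of a library nearly alike, here by at most 0.038 on the log2 scale. Read-through loci were few, with 4634 of 4698 long noncoding genes left without them. Staying within the limits was thus largely set beforehand, and the count of 66 is not read as stability. With 2 hairpins, leaving out either one moves their mean by less than their SD by construction, so these values are given as ranges and not counted as stable. They put MALAT1 in ATF7IP knockdown between -0.91 and -0.51, the MALAT1 and TALAM1 sum between -0.67 and -0.50, NEAT1 between -0.65 and -0.24 and TALAM1 between 3.20 and 7.67. The log2 difference of GAS5 changed sign between the hairpins (-0.40 without hairpin 1, 0.15 without hairpin 2).

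The counts of called genes depended on the setting. For ATF7IP knockdown against Control the 13 calls became 3 with DESeq2 size factors, 1 with no filter, 34 with only the Control and ATF7IP libraries and 162 with DESeq2. For SETDB1 knockdown against Control the 12 became 7, 0 and 46 with DESeq2 size factors, no filter and DESeq2 (787 genes had an unadjusted edgeR p under 0.05 with no filter). For SETDB1 against ATF7IP knockdown the 28 became 11, 8 and 173. The cause was not tested. Leaving out an ATF7IP library left no residual degrees of freedom, so these counts were not recomputed, and TALAM1 in SETDB1 knockdown has no value because both libraries were at or under the floor. No paired analysis was possible because the groups share fewer than 2 replicate numbers. Control and SETDB1 knockdown have 1 library each, so their differences have a counting interval and no replicate error, and the TALAM1 ratios to Control rest on 2 Control fragments.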
